A study of Mus musculus with 4 samples.

Results

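The solute carrier (SLC) genes of mouse macrophages with and without Pparg were described. Members were all probe sets with values that the platform annotation assigns to 1 gene whose symbol starts with Slc and a digit, with Slc11a1 and Slc40a1 left out. By this rule 158 probe sets of 136 genes were members, out of 7577 named genes with values on the array. A further 26 Slc probe sets were blank on all 4 arrays, and 14 genes had blank probe sets alone. Among these were Slc1a5, which carries glutamine, Slc7a11, the cystine-glutamate exchanger, and Slc16a1, a lactate carrier.

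Solute carriers are membrane proteins that move small molecules such as amino acids, sugars, lactate, ions, metals and vitamins across the cell surface and the membranes of organelles. Most of the Slc25 branch serves the inner mitochondrial membrane. In macrophages they supply arginine to nitric oxide synthase and arginase, glucose to glycolysis, and metals to enzymes and storage proteins. PPARγ, the product of Pparg, is a nuclear receptor that binds fatty acid derivatives and regulates genes of lipid handling.

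The cells were thioglycollate-elicited peritoneal macrophages, that is, monocyte-derived cells drawn into the abdominal cavity by an irritant. All came from mice on a mixed 129/SV and C57BL/6 background, given 2.5 ml of 3% thioglycollate and lavaged after 3 days. In culture both genotypes had the same handling: plating with 10% fetal bovine serum, a wash after 5 h and 24 h with 0.5% serum, with no ligand added. The 2 groups were PPARg WT and PPARg KO, with 2 arrays each on a 1-colour Affymetrix platform. The labels do not name the deleted part of Pparg, the driver of the deletion, or the age of the mice. Nor do they state that the arrays of a genotype came from different animals or cultures, and both second replicates are described with the ending dup. P-values therefore describe no more than how far these 4 arrays scatter, possibly for technical reasons, and the number of arrays limits the precision. The comparison asked which carrier transcripts differ between macrophages with and without Pparg.

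The array medians lay between 136.7 and 142.0 intensity units, and the 12 antisense control probe sets, which read background hybridisation, had array medians from 103.8 to 116.0. The Pparg probe set read 61.1 and 73.1 in WT against 43.0 and 40.6 in KO, a difference of -0.52 on the log2 scale (SE 0.11, limma adjusted p = 0.00012 when no signal filter was used). All 4 values were under the antisense median of their array, and a probe set outside the deleted part would check nothing. Of 10 macrophage markers, 8 were well above the antisense level, and the summed signal of the 10 overlapped, at 24547.4 and 25127.9 in WT and 22386.3 and 25762.1 in KO. Single macrophage markers differed: of 9 tested, 1 fell (Mertk, log2 fold change -0.63, limma adjusted p = 1.37e-06), where 2.66% of all 5002 genes tested fell. Cybb had a log2 fold change of -0.48 (adjusted p = 0.0512). Both KO arrays lay below both WT arrays for 4 of the 9 (44.4%), against 20.9% of all 5002 genes. Markers of T and NK cells (0 of 10 with values), eosinophils (0 of 3) and erythroid cells (0 of 3) were not well above the antisense level. Nor were most of those of B cells (2 of 7 well above), neutrophils (2 of 10), mast cells and basophils (1 of 7) and dendritic cells (1 of 5). Of 11 fibroblast and mesothelial markers with values 6 were well above it. Their summed signal was 2427.0 and 2375.3 in WT against 2935.1 and 3264.0 in KO, so the genotypes did not overlap, nor did they without Dcn, the 1 member that rose (1810.7 and 1814.4 against 1989.9 and 2204.3). The neutrophil sum was 1756.3 and 1829.8 in WT against 1637.4 and 1578.4 in KO. That gap rested on S100a8, which fell (log2 fold change -0.58, adjusted p = 0.00154), since the other 9 summed to 1239.4 and 1287.6 in WT and 1306.6 and 1208.2 in KO, with overlap. No marker in any list was at 0. The part of these cells in the results below was not tested, and in bulk RNA fewer cells of a type and less RNA per cell cannot be told apart.

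Signals are in the deposited intensity units and are given for WT replicates 1 and 2 and then KO replicates 1 and 2, with means ± SD (n = 2). Each log2 fold change subtracts WT from KO after 16 was added to the signals, which understates changes of dim probe sets, and folds are on that same scale. A gene was tested where its mean lay above the 40th percentile of all probe sets, a signal of 111.0. A gene rose or fell where its adjusted p over all 6389 probe sets tested was under 0.05. A gene counted as well above the antisense level where its mean over the 4 arrays was at least 2 times the mean of the antisense medians, 218.9. Each gene is its brightest probe set.

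By these rules 44 of the 136 solute carrier genes (32.4%) were well above the antisense level, against 37.4% of all 7577 genes. On all 4 arrays, 67 of the 136 stayed below the highest antisense control. Testing took in 89 of the 136 (65.4%, against 66.0% of all genes). The other 47, with mean signals from 16.8 to 107.5, include 10 amino acid and peptide carriers, 14 ion and metal carriers and 17 carriers of other substrates. Most of the family was thus not well above background, and statements on genes that rose or fell concern the 89. The 136 and the 89 include adaptors with Slc symbols that are not carriers. Without these, 133 genes had values and 87 were tested, and no adaptor rose or fell.

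**Figure D1:**
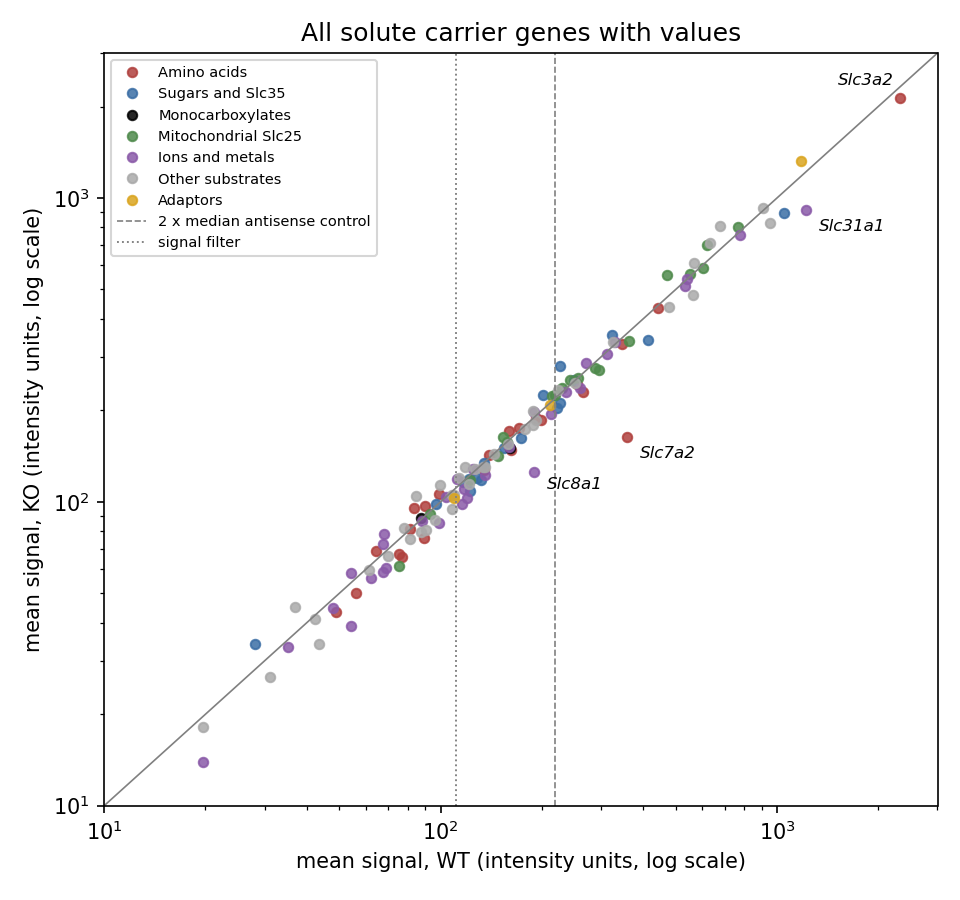
Mean signal of each of the 136 solute carrier genes with values in KO (vertical) against WT (horizontal), both in intensity units on log scales, 1 point per gene, coloured by substrate class, means of 2 arrays. The diagonal marks equal signal, the dotted line the signal filter of 111.0 and the dashed line the level of 218.9 that counts as well above the antisense controls. Both lines are drawn on the WT axis, while the rules use the mean over all arrays, so genes near a line can differ from its rule. Most points lie close to the diagonal, and Slc7a2 and Slc8a1 lie below it.

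Among the 89 tested carriers, 2 fell in KO and 0 rose. The 2 were Slc7a2, an arginine transporter, and Slc8a1, a sodium-calcium exchanger. That is 2.25% lower, against 2.66% of all 5002 genes tested that were called lower, and 0 higher against 1.06% called higher, so the share that fell was near that of genes at large. At an unadjusted p under 0.05, 4 carriers were lower and 1 was higher, where the background was 6.46% lower and 3% higher. The adjusted count of 0 higher was limma's with the values as deposited, and it was 2 after quantile normalization. Both KO arrays lay below both WT arrays for 19 carriers (21.3%, against 20.9% of all genes) and above them for 7 (7.87%, against 11.3%).

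Sizes were small for most of the family. For 79 of the 89 the fold change was under 0.2 in absolute value on the log2 scale, as for 4298 of all 5002 genes. In counts of lower and higher KO means, here and below, means were taken on the log2 scale. By that rule the KO mean was lower for 56 (62.9%, against 57.7% of all 5002 genes) and higher for 33. The median log2 fold change of the carriers was -0.033, beside -0.021 over all genes tested, and it was 0.002 after quantile normalization. Standard errors ran from 0.11 to 0.16. Members well above the antisense level were brighter on KO replicate 2 than on KO replicate 1 in 36 of 44 genes, with a median log2 difference of 0.15, where WT replicate 2 exceeded WT replicate 1 by 0.04. The 2 KO arrays therefore disagreed more on these genes than the 2 WT arrays did, and this was not particular to carriers. The SD of the log2 difference between replicates was 0.17 in KO and 0.14 in WT over all probe sets tested. Over the carriers it was 0.16 in KO and 0.13 in WT. The count of genes brighter on KO replicate 2 was not made over all genes.

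**Figure D2:**
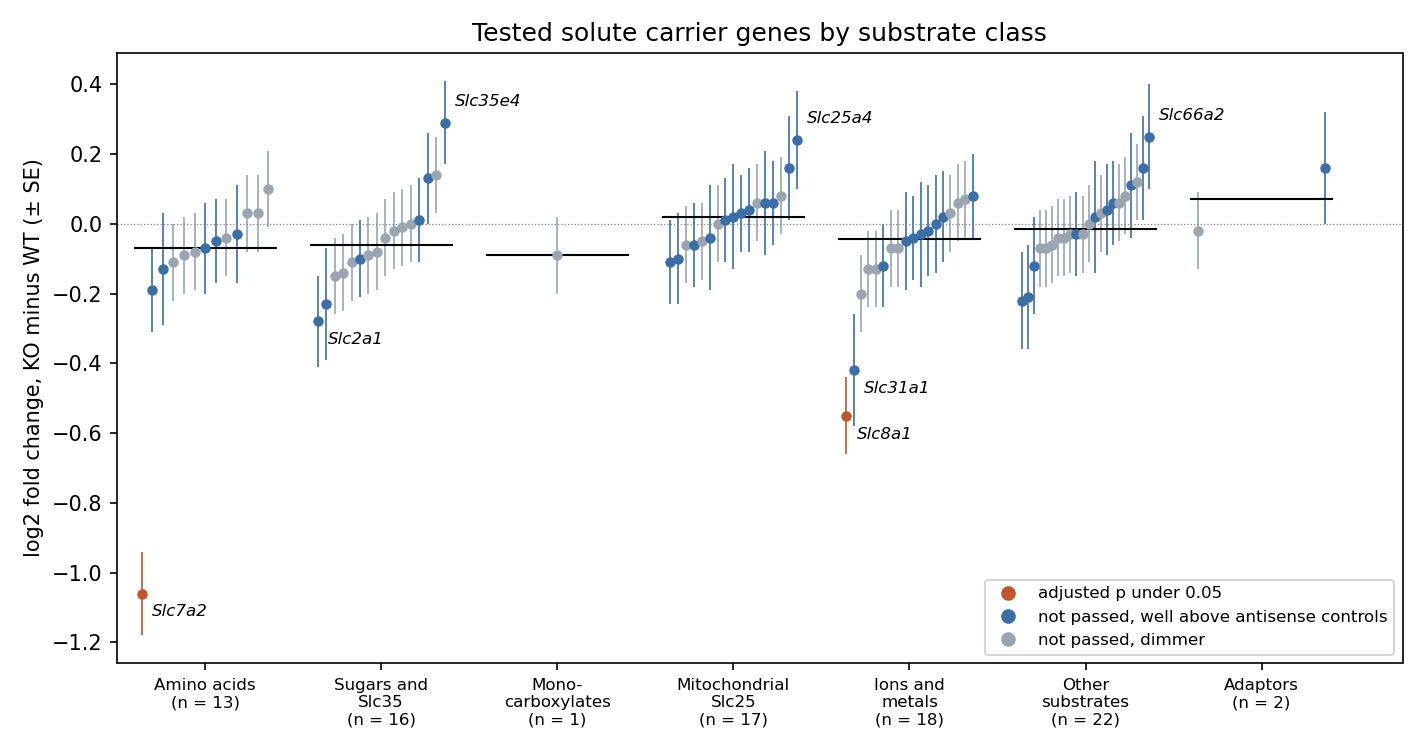
Log2 fold change (KO minus WT, ± SE) of the 89 tested solute carrier genes, grouped by substrate class and ordered by value within each class, with 1 point per gene and a black bar at the class median. Orange marks an adjusted p under 0.05, blue the genes well above the antisense level that did not pass, and grey dimmer genes that did not pass. Slc7a2 at -1.06 and Slc8a1 at -0.55 are the 2 orange points.

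Among amino acid and peptide carriers 1 of 13 tested genes fell (7.69%, against 2.66% of all 5002 genes tested) and 0 rose. Of 23 with values, 6 were well above the antisense level. The gene that fell was Slc7a2, which encodes the cationic amino acid transporter CAT2 and brings arginine, lysine and ornithine into the cell. It read 342.3 and 376.3 in WT and 154.9 and 172.7 in KO. Both KO arrays were under the lower WT array, and all 4 values were above the highest antisense control of their own array, which was 150.1 on KO replicate 1. The mean fell from 359.3 ± 24.0 in WT to 163.8 ± 12.6 in KO, a log2 fold change of -1.06 (SE 0.12, 95% interval -1.29 to -0.83, adjusted p = 1.37e-16), or 2.09-fold. With each array left out in turn the log2 fold change ran from -1.13 to -0.99 and the gene was called each time. The very small p rests on a spread shared by all probe sets of like signal. With each probe set's own spread (2 residual degrees of freedom) neither Slc7a2 nor Slc8a1 passed (adjusted p = 0.78 for both), and 0 of all probe sets did.

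The other amino acid carriers well above the antisense level did not pass. Slc3a2 encodes the heavy chain of CD98, which brings its light chain partners to the cell surface. It read 2255.6 and 2388.8 in WT and 1936.6 and 2330.7 in KO (log2 fold change -0.13, SE 0.16), so the genotypes overlapped. Slc7a5, its partner for large neutral amino acids (LAT1), read 276.6 and 254.8 in WT and 232.0 and 228.0 in KO. Both KO arrays were lower, but the log2 fold change of -0.19 (SE 0.12, adjusted p = 0.751) did not pass. Slc7a7, the partner that exchanges cationic for neutral amino acids (y+LAT1), read 343.2 and 348.1 in WT and 308.2 and 351.7 in KO (log2 fold change -0.07). Another 2 genes overlapped between genotypes as well. Slc6a9, a glycine transporter, read 270.1 and 237.5 in WT and 257.5 and 231.9 in KO (log2 fold change -0.05). Slc38a10, a carrier of glutamine and related amino acids, read 440.6 and 445.3 in WT and 405.5 and 465.7 in KO (log2 fold change -0.03).

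The remaining 7 tested members of this class were dimmer, with log2 fold changes between -0.11 (Slc7a8) and 0.10 (Slc6a20b). Slc7a1, the related cationic amino acid transporter CAT1, was below the filter with a mean of 82.6. The class median was -0.067, and both KO arrays lay below both WT arrays for 3 of the 13 (23.1%, against 20.9% of all genes), Slc7a2, Slc7a5 and Slc7a3.

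**Figure D3:**
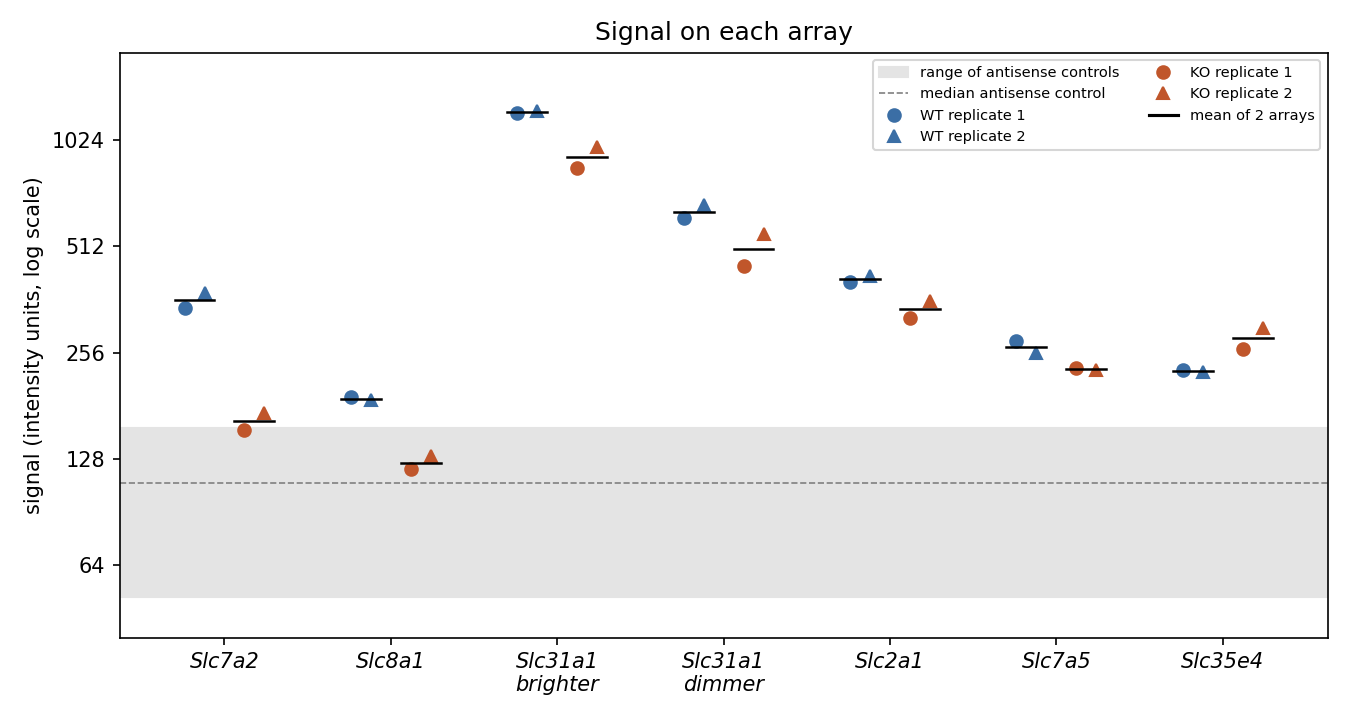
Signal on each array (vertical, intensity units, log scale) for 6 named carriers, with both Slc31a1 probe sets, in WT (blue) and KO (orange), where circles are replicate 1, triangles replicate 2 and black bars the mean of 2 arrays. The grey band is the range of the antisense controls over all arrays and the dashed line their median. WT and KO do not overlap for these 7 probe sets. Both KO arrays of Slc8a1 and KO replicate 1 of Slc7a2 lie inside the grey band.

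The enzymes that use these amino acids were taken from a list of 21 genes, of which 19 had values and 13 were tested. In it 1 gene rose and 1 fell (7.69% of the 13 fell), where 1.06% of all 5002 genes tested rose and 2.66% fell. Arg1, arginase 1, which splits arginine into ornithine and urea, read 257.8 and 206.1 in WT and 395.0 and 483.3 in KO. It rose 1.84-fold (log2 fold change 0.88, SE 0.13, adjusted p = 9.68e-10), in the opposite direction to Slc7a2. Nos2, the inducible nitric oxide synthase that also uses arginine, was dim and not tested, at 96.1 and 84.3 in WT and 47.3 and 48.7 in KO. Gclm, the modifier subunit of the first enzyme of glutathione synthesis, read 402.5 and 395.7 in WT and 272.1 and 278.8 in KO. It fell 1.42-fold (log2 fold change -0.51, SE 0.13, adjusted p = 0.00344).

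Among carriers of sugars, nucleotide sugars and nucleotides 0 of 16 tested genes passed in either direction, and 6 of 18 with values were well above the antisense level. At an unadjusted p under 0.05, 1 was lower and 1 higher. The lower one was Slc2a1, which encodes the glucose transporter GLUT1. It read 405.8 and 422.7 in WT and 321.3 and 358.4 in KO, with both KO arrays under both WT arrays. The means were 414.2 ± 12.0 and 339.9 ± 26.2, a log2 fold change of -0.28 (SE 0.13, 95% interval -0.54 to -0.01, adjusted p = 0.444). The higher one was Slc35e4, a member of the nucleotide sugar transporter family whose substrate is not known. It read 228.4 and 225.5 in WT and 262.4 and 299.4 in KO, with both KO arrays above both WT arrays. The log2 fold change was 0.29 (SE 0.12, 95% interval 0.05 to 0.52, adjusted p = 0.261), and without KO replicate 1 it was 0.38 and passed (adjusted p = 0.0432), while without KO replicate 2 it was 0.20 and did not (adjusted p = 0.485). It also passed after quantile normalization (adjusted p = 0.0445) and with the replicate block (adjusted p = 0.0276), and did not pass without either WT array.

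The other members named here overlapped between genotypes. Slc35b1, which exchanges ATP for ADP across the endoplasmic reticulum membrane, read 962.2 and 1139.8 in WT and 807.2 and 983.6 in KO (log2 fold change -0.23, SE 0.16, and -0.37 to -0.09 with single arrays left out). Slc35b2, which carries the sulfate donor PAPS into the Golgi, read 298.8 and 348.0 in WT and 326.0 and 382.6 in KO (log2 fold change 0.13). Slc2a8, the intracellular sugar transporter GLUT8, read 247.1 and 249.8 in WT and 256.2 and 245.4 in KO (log2 fold change 0.01). Slc35c2, a Golgi protein linked to fucosylation and just under the well-above level, had a log2 fold change of 0.14 (SE 0.11). Over the whole class the median was -0.061, and it was -0.061 too over the 8 tested sugar carriers, of which 7 had a lower KO mean, beside the 57.7% of all genes. Slc2a3 and Slc2a4, which encode GLUT3 and GLUT4, were dim, with log2 fold changes of -0.02 and -0.01.

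Lactate carriers were represented by 2 genes with values, neither of them well above the antisense level. Slc16a8, which encodes the monocarboxylate transporter MCT3, was the 1 tested member. It read 168.0 and 153.0 in WT and 163.5 and 137.3 in KO (log2 fold change -0.09, SE 0.11). Slc16a7 (MCT2) was below the filter, at 90.0 and 85.4 in WT and 79.5 and 98.0 in KO. Bsg, which encodes basigin, the chaperone that brings MCT1 to the surface, read 754.5 and 774.7 in WT and 707.8 and 803.9 in KO (log2 fold change -0.02).

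In a list of 16 genes of sugar and lactate metabolism, 12 had values, 10 were tested and 0 passed in limma, with 1 lower and 0 higher at an unadjusted p under 0.05. Of all 5002 genes tested, 6.46% were lower and 3% higher at that p. Ldha, the lactate dehydrogenase subunit of glycolytic cells, read 4910.8 and 5271.7 in WT and 4243.5 and 5100.4 in KO (log2 fold change -0.13). Pgd, an enzyme of the pentose phosphate pathway, read 1457.0 and 1527.5 in WT and 1182.4 and 1378.2 in KO, a log2 fold change of -0.22 (adjusted p = 0.894). Both KO arrays of Pgd were lower, and the arrays of Ldha overlapped.

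The Slc25 carriers, mostly mitochondrial and grouped by family name, had 12 of 19 genes well above the antisense level, 17 tested, and 0 that rose or fell. At an unadjusted p under 0.05 there were 0 as well, and with quantile normalization, without a filter or with the replicate block no Slc25 gene passed. Their median log2 fold change was 0.024, with 7 KO means lower and 10 higher. It was between -0.01 and 0.053 with single arrays left out, so it has no settled sign. The values ran from -0.11 for Slc25a28, which brings iron into mitochondria, to 0.24 for Slc25a4.

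Slc25a4 and Slc25a5 encode ADP/ATP carriers, which exchange mitochondrial ATP for cytosolic ADP. Slc25a4 read 472.4 and 467.4 in WT and 518.0 and 597.6 in KO. Both KO arrays were higher, but the log2 fold change of 0.24 (SE 0.14, adjusted p = 0.746) did not pass. Slc25a5 read 753.2 and 783.4 in WT and 764.0 and 843.1 in KO (log2 fold change 0.06). That probe set carries the f suffix, which Affymetrix gives to probes shared within a gene family, so its assignment to 1 gene is uncertain. The other 2 Slc25a5 probe sets had log2 fold changes of -0.10 and -0.11.

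The other Slc25 genes named here overlapped between genotypes. Slc25a39, which carries glutathione into mitochondria, read 566.8 and 674.6 in WT and 617.8 and 781.6 in KO (log2 fold change 0.16, SE 0.15). Slc25a1, which exports citrate for fatty acid synthesis, read 565.7 and 642.6 in WT and 551.3 and 626.1 in KO (log2 fold change -0.04, and 0.03 for its dimmer probe set). Slc25a11, the oxoglutarate-malate exchanger, read 548.1 and 556.4 in WT and 548.5 and 575.0 in KO (log2 fold change 0.02, 95% interval -0.26 to 0.31). Slc25a20, the carnitine-acylcarnitine carrier of fatty acid oxidation, was just under the well-above level. It read 221.0 and 207.4 in WT and 221.0 and 225.2 in KO (log2 fold change 0.06).

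In a list of 15 mitochondrial genes 13 had values, 11 were tested and 0 passed in limma, with 1 lower and 0 higher at an unadjusted p under 0.05. Of all 5002 genes tested, 6.46% were lower and 3% higher at that p. Mdh2, the mitochondrial malate dehydrogenase, had a log2 fold change of -0.05 (SE 0.16), and Timm23, part of the protein import channel of the inner membrane, of 0.02 (SE 0.16). Both genes overlapped between genotypes, as did most of the Slc25 genes named above.

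Among ion and metal carriers 1 of 18 tested genes fell (5.56%, against 2.66% of all 5002 genes tested) and 0 rose. Of 32 with values, 9 were well above the antisense level. The gene that fell was Slc8a1, which encodes the sodium-calcium exchanger NCX1. It read 191.3 and 187.9 in WT and 119.6 and 130.2 in KO. Both KO arrays were under both WT arrays, the WT arrays were above the highest antisense control, and the KO arrays were inside the range of these controls. The mean fell from 189.6 ± 2.40 to 124.9 ± 7.50, a log2 fold change of -0.55 (SE 0.11, 95% interval -0.76 to -0.33, adjusted p = 5.51e-05), or 1.46-fold. With single arrays left out it ran from -0.60 to -0.49 and was called each time, with adjusted p up to 0.0409. With a mean of 157.2 the gene was not well above the antisense level, and a filter at the 60th percentile removed it. Its second probe set, at 13.5 and 11.8 in WT and 13.1 and 10.1 in KO, was too dim to test, and the third was blank.

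The metal carrier with the largest difference was Slc31a1, which encodes the copper importer CTR1. It read 1216.7 and 1229.9 in WT and 850.6 and 977.6 in KO. The means were 1223.3 ± 9.33 and 914.1 ± 89.8, a log2 fold change of -0.42 (SE 0.16, 95% interval -0.72 to -0.11, adjusted p = 0.154). The dimmer probe set of the gene read 614.2 and 667.1 in WT and 450.8 and 552.7 in KO (log2 fold change -0.35, SE 0.15, adjusted p = 0.268). On both probe sets both KO arrays were lower than both WT arrays, and neither passed with the values as deposited. Without KO replicate 2 the brighter probe set had a log2 fold change of -0.52 and passed (adjusted p = 0.00713), while without KO replicate 1 it had -0.32 and did not (adjusted p = 0.267), nor did it without either WT array. It also passed after quantile normalization (-0.38, adjusted p = 0.00142), without the variance trend (adjusted p = 0.0104) and with the replicate block (adjusted p = 0.00168). The dimmer probe set passed without KO replicate 2 (adjusted p = 0.0119), after quantile normalization (0.0263) and with the replicate block (0.00879), and had -0.21 without KO replicate 1 (adjusted p = 0.601).

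The start-site regions of these 2 genes are shown. Slc8a1 fell, and Slc31a1 had the smallest limma p among the carriers that did not pass. Slc7a2, which fell as well, had no region in the sequences used here. The regions shown come from RefSeq's annotation of GRCm38.p6 and run from 250 bases before to 50 bases after the start. Slc8a1 lies at chr17:81738338-81738637 on the minus strand and Slc31a1 at chr4:62360451-62360750 on the plus strand. Capitals mark matches on either strand to the motifs searched, here the GC box GGGCGG that Sp1 binds, at bases 241 to 246 and 252 to 257 of the Slc31a1 window.
Slc8a1: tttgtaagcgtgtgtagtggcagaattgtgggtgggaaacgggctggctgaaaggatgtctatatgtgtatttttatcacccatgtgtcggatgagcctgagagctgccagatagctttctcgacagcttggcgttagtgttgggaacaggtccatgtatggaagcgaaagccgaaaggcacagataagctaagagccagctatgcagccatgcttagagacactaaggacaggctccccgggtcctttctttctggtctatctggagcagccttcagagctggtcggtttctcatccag
Slc31a1: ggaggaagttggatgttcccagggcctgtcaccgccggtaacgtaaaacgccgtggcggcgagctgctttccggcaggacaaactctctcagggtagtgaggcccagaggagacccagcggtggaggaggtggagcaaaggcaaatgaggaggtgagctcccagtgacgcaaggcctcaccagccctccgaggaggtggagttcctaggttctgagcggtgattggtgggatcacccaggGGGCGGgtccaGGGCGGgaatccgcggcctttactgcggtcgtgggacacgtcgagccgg
The search also covered the direct repeat AGGTCANAGGTCA that PPARγ binds with RXR, its half-site AGGTCA and the metal response element core TGCGCNC. The half-site is contained in the direct repeat. In these letters the Slc8a1 window held 0 matches to all 4 motifs, and the Slc31a1 window held the GC boxes alone. Of 32851 windows of this length, the direct repeat was in 13 (0.0396%), the half-site in 16.3%, the metal element core in 15.4% and the GC box in 35.7%. Of 162 windows of 112 solute carrier genes, the direct repeat was in 0, the half-site in 16.7%, the metal element core in 21.6% and the GC box in 62.3%. These matches describe letters in a window and are not binding sites.

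The other ion and metal carriers named here did not pass. Slc26a2, a sulfate carrier, read 120.7 and 119.7 in WT and had a mean of 102.9 ± 4.10 in KO, where the higher array read 105.8 (log2 fold change -0.20, SE 0.11, adjusted p = 0.667). Its KO arrays were lower, but all 4 values were below the highest antisense control. Slc11a2 encodes DMT1, which carries iron and other divalent metals. It read 771.9 and 776.7 in WT and 722.9 and 790.2 in KO (log2 fold change -0.03, and -0.02 for its dimmer probe set). Slc30a3, a zinc exporter into vesicles, read 539.5 and 541.0 in WT and 567.7 and 513.8 in KO (log2 fold change -0.00, 95% interval -0.28 to 0.28). Slc39a4, the zinc importer ZIP4, read 566.2 and 495.8 in WT and 581.2 and 448.1 in KO (log2 fold change -0.05, and -0.16 for its dimmer probe set). The 2 probe sets of Slc39a4 had means of 522.8 and 176.4 over the 4 arrays, so its place among the brightest rests on 1 of them. These 3 metal carriers overlapped between genotypes on their brightest probe sets, and so did Slc4a2, the chloride-bicarbonate exchanger AE2, at 302.9 and 357.2 in WT and 303.9 and 366.7 in KO (log2 fold change 0.02). The dimmer probe sets of Slc11a2 and Slc39a4 were not well above the antisense level, and their KO arrays were below both WT arrays. Both KO arrays lay below both WT arrays for 6 of the 18 (33.3%, against 20.9% of all genes tested), and above them for 1 (5.56%, against 11.3%). The class median was -0.044, and 8 of the 10 tested metal carriers had a lower KO mean on the log2 scale, as did 57.7% of all genes. The 8 include Slc30a3 at -0.00, whose mean signal was 540.2 in WT and 540.8 in KO.

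In a list of 17 genes of ion and metal handling 11 had values, 8 were tested, 1 fell and 0 rose. That is 12.5% lower, where 2.66% of all 5002 genes tested fell and 1.06% rose. The gene that fell was Clcn7, the chloride-proton exchanger of lysosomes. It read 2690.0 and 3201.5 in WT and 1876.7 and 2276.1 in KO, without overlap (log2 fold change -0.50, SE 0.16, adjusted p = 0.0392, 1.42-fold). The metallothioneins, which bind copper and zinc, did not pass. Mt1 had a log2 fold change of 0.10 and Mt2 of -0.29 (SE 0.15, adjusted p = 0.586).

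Among carriers of other substrates 0 of 22 tested genes rose or fell, with 0 at an unadjusted p under 0.05 as well, and 10 of 39 with values were well above the antisense level. One gene of this class, Slc66a2, passed after quantile normalization. The class median was -0.017 and turned to 0.014 with quantile normalization. Slc23a2, which imports ascorbate (vitamin C), read 548.6 and 574.9 in WT and 448.0 and 512.7 in KO (log2 fold change -0.22, SE 0.14, adjusted p = 0.81). Slc48a1, which moves heme out of the phagolysosome, read 955.9 and 955.0 in WT and 752.1 and 902.0 in KO (log2 fold change -0.21, SE 0.15, adjusted p = 0.91). Both KO arrays of both genes were below WT, and neither gene passed. Slc66a2, a PQ-loop protein whose substrate is not settled, read 652.1 and 704.4 in WT and 736.2 and 884.1 in KO. Its KO arrays were above WT (log2 fold change 0.25, SE 0.15, adjusted p = 0.766, and 0.0276 after quantile normalization).

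A further pair overlapped between genotypes on their brightest probe sets. Slc6a6, the taurine transporter, read 919.7 and 898.7 in WT and 857.8 and 996.6 in KO (log2 fold change 0.02, and -0.11 for its dimmer probe set). Slc6a8, the creatine transporter, read 601.3 and 664.3 in WT and 662.3 and 761.4 in KO (log2 fold change 0.16, SE 0.15). On the dimmer probe set of each of these genes both KO arrays were below both WT arrays, and that of Slc6a8, with a mean of 63.1, was not tested. Slc27a1, a fatty acid transport protein of the lipid handling genes, did not overlap, with KO at 436.8 and 438.6 against 443.2 and 513.1 in WT (log2 fold change -0.12, SE 0.14), did not pass and was named after its values were seen. A further 3 symbols denote adaptors that bind carriers and are not carriers. The brightest, Slc9a3r1 (NHERF1), read 1142.7 and 1213.1 in WT and 1205.6 and 1432.3 in KO (log2 fold change 0.16, SE 0.16).

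Without the signal filter 3 of the 136 genes were lower in KO and 0 higher, where 2.32% of all 7577 genes were called lower. The third was Slc12a2, the sodium-potassium-chloride cotransporter NKCC1. It read 60.3 and 48.2 in WT and 35.7 and 42.0 in KO, all below the antisense medians (log2 fold change -0.35, adjusted p = 0.0334). A dim second probe set of Slc10a1, the bile acid carrier of liver, also passed, at 39.5 and 30.2 in WT and 22.3 and 22.7 in KO, while the brighter one had a log2 fold change of 0.16. Probe sets of 1 gene did not always give the same direction. Of 10 genes with several tested probe sets, 5 had the same sign on each.

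**Figure D4:**
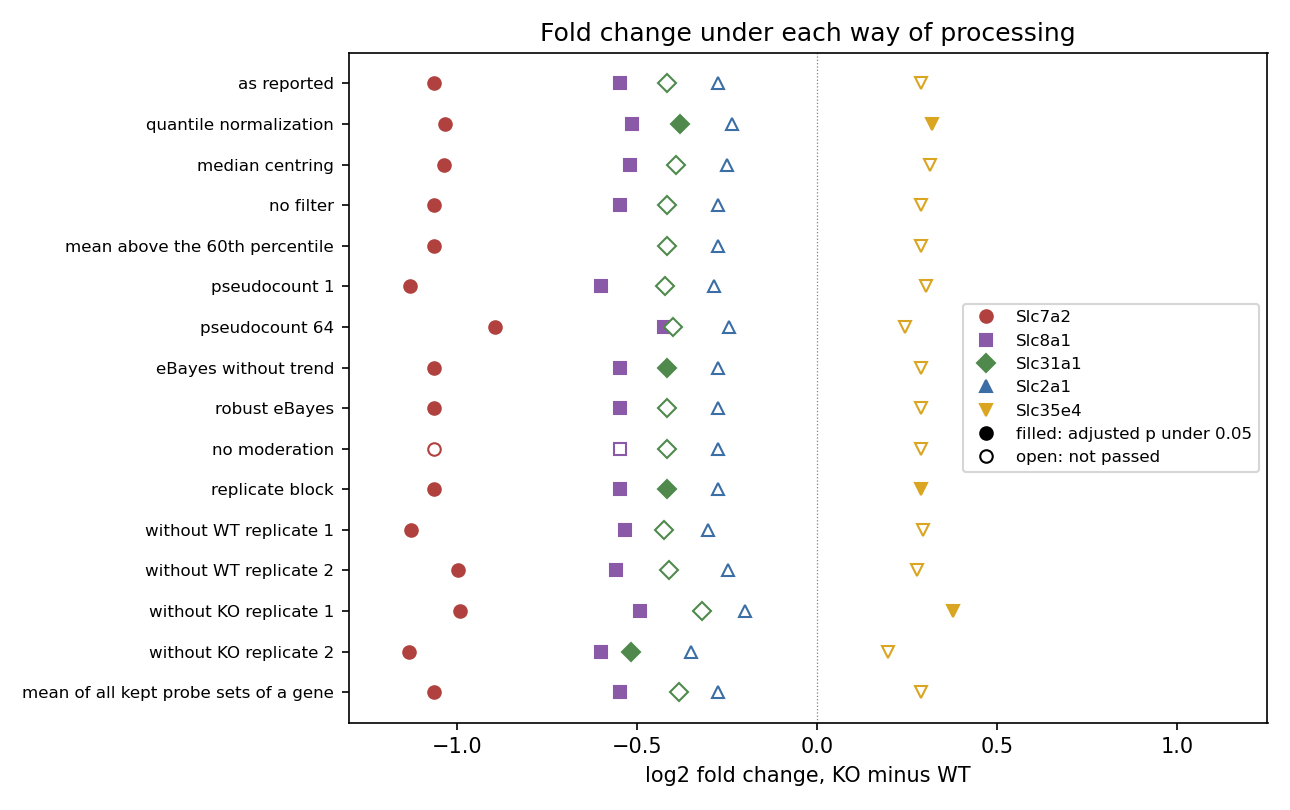
Log2 fold change (KO minus WT, horizontal) of 5 named carriers under each way of processing (rows), with filled symbols for an adjusted p under 0.05 and open ones for values that did not pass. Slc7a2 and Slc8a1 are filled in each row where they were tested except the one without moderation. Slc8a1 is missing at the 60th percentile filter, and Slc31a1 and Slc35e4 are filled in some rows.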

How the data were processed

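RNA of thioglycollate-elicited macrophages was hybridised to 4 arrays, per the labels, with genotype and replicate number read from the titles. The deposited values are 1 intensity per probe set on a linear scale. For the summary of probes, background correction and scaling by the authors, no method was given in the sources used here. Of 12488 rows, 1780 were blank and 59 were controls. Of the 10649 others, 9389 had 1 gene in the platform annotation, 341 several and 919 none. All 136 member genes matched RefSeq gene identifiers, and 0 symbols changed.

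Values were used as deposited, since array medians on the log2 scale differed by less than 0.1. The 6389 probe sets above the filter entered 1 limma fit of KO against WT (limma 3.58.1, R 4.3.3, two-sided, log2 of intensity plus 16, variance trend, Benjamini-Hochberg adjustment over all probe sets). The prior degrees of freedom came out infinite, so the trend alone set the spread. It called 227 probe sets, 65 higher and 162 lower. Simulated data with known changes in 200 of 6389 probe sets served to check the code for this comparison: it recovered 100% of tested changes of 1 and 86% of those of 0.5 on the log2 scale, with 8 false calls among 178. The simulated noise was independent between arrays and had 1 common spread, while the fit to the arrays let spread vary with signal. These rates therefore need not hold for the real arrays.

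Members, substrate classes, pathway lists and cell markers were chosen with earlier results of these data known. Those named are the genes past the threshold, up to 5 brightest per class well above the antisense level and the 5 per direction with the smallest p among the rest, and, of each pathway list, those past the threshold or the 2 brightest. Other genes named (among them Nos2, Bsg, Mt1, Mt2, Cybb, Mertk, S100a8, Dcn, Slc7a1, Slc2a3, Slc2a4, Slc25a20, Slc25a28 and class extremes), the classes of Slc66a2, Slc51a, Slc4a1ap and Slc6a20b, the promoter search and the marker sums without called genes were chosen after values were seen. Alternatives were quantile normalization, median centring, other filters, pseudocounts of 1 and 64, other variance models, an adjusted p of 0.1, the replicate number as a block, leaving out each array, and averaging the tested probe sets of each gene. Figures were drawn with matplotlib 3.10.9.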

Additional observations from a re-analysis of the deposited data

How the results depend on the processing

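The fall of Slc7a2 and Slc8a1 kept its direction under all alternatives that gave a value, and its call under all of these but the fit without moderation. The carriers that fell numbered 2 as reported, 1 with the 60th percentile filter, 0 without moderation, 2 to 3 with arrays left out, and 3 with quantile normalization, no filter, no variance trend or the replicate block. Without KO replicate 2 there were 3. Those that rose numbered 0, against 2 with quantile normalization, 1 with the replicate block and 0 to 1 with arrays left out. Of the replicate pairs only 2 exist, so the shared numbers do not show that arrays are paired (correlation of replicate deviations 0.42). Over all probe sets 227 were called as reported, 419 after quantile normalization, 480 with the replicate block, 0 without moderation and 54 to 327 with arrays left out (72 without WT replicate 1 and 54 without WT replicate 2). When an array was left out, the lone array was assumed to vary like the other genotype.

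Class medians were near 0 and moved with the scaling. For all members the median was 0.002 with quantile normalization, -0.007 with median centring and -0.038 to -0.022 with arrays left out. It was -0.119 to -0.042 with arrays left out for amino acid carriers, -0.01 to 0.053 for Slc25 and -0.202 to 0.026 for the lactate class, whose 1 tested gene, Slc16a8, thus changed sign. Sugar carriers gave -0.023 with quantile normalization and -0.071 to -0.016 with arrays left out, and ion and metal carriers -0.009 and -0.097 to -0.042. Other substrates gave 0.014 with quantile normalization, 0.009 with median centring, -0.033 without a filter, 0.024 with the 60th percentile filter and -0.014 to 0.009 with arrays left out.

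Named genes that changed sign had no call either way. Slc11a2 was 0.017 and Slc38a10 0.003 with quantile normalization, Slc30a3 was 0.037 with it and 0.026 with median centring, and with probe sets averaged by gene Slc25a5 was -0.05 and Slc6a6 -0.043. With arrays left out the log2 fold change was -0.097 to 0.029 for Slc11a2, -0.126 to 0.053 for Slc25a1, -0.01 to 0.057 for Slc25a11, -0.001 to 0.33 for Slc25a39, -0.008 to 0.132 for Slc25a5, -0.017 to 0.042 for Slc2a8 and -0.07 to 0.069 for Slc30a3. It was -0.123 to 0.07 for Slc38a10, -0.234 to 0.13 for Slc39a4, -0.259 to 0.006 for Slc3a2, -0.109 to 0.15 for Slc4a2, -0.082 to 0.13 for Slc6a6, -0.136 to 0.039 for Slc6a9 and -0.158 to 0.024 for Slc7a7. Some named genes that did not pass as reported kept their sign, but their size moved with single arrays left out. Among them were Slc35b1 (-0.369 to -0.089), Slc48a1 (-0.339 to -0.082), Slc35b2 (0.015 to 0.236) and Slc66a2 (0.117 to 0.376). Others were Slc35c2 (0.017 to 0.262), Slc23a2 (-0.316 to -0.128) and Slc25a4 (0.136 to 0.337). The cause was not tested. Signal over background limits the 47 carriers below the filter, which were not tested.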
